A study of Mus musculus with 16 samples.

Results

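The genes of mitochondrial ribosomal proteins were followed across 16 mouse heart libraries. They were taken by name from the deposited count table, as protein-coding genes called Mrpl or Mrps followed by a digit, without pseudogenes, which gave 78 of 24371 genes. Of these, 49 are named Mrpl (large subunit) and 29 Mrps (small subunit), and all 78 passed the filter on low counts that left 14607 genes for testing. All mice were put through the HFpEF model (heart failure with a preserved ejection fraction): 12 weeks of L-NAME, which blocks nitric oxide synthesis, on a high-fat diet. The 4 groups of 4 libraries were Myh6Cre Gpr91fl/fl mice given succinate, Myh6Cre Gpr91fl/fl mice without it, Gpr91fl/fl mice given succinate, and Gpr91fl/fl mice without it. Both genotypes carry the floxed alleles of Gpr91, the succinate receptor gene now named Sucnr1, and the Myh6 promoter restricts Cre to cardiomyocytes. They are called Cre hearts and floxed hearts below, and hearts without succinate are called untreated. No group without the diet and L-NAME was among the samples, and the ages of the mice and the dose of succinate are not given in the sources used here.

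Mitochondria keep a ribosome of their own, which translates the few messages that the mitochondrial genome encodes, all of them for subunits of the respiratory chain and ATP synthase. Its RNAs come from the mitochondrial genome, whereas its proteins are encoded in the nucleus, made in the cytosol and imported. In cardiomyocytes, whose contraction relies on oxidative phosphorylation, defects of single mitochondrial ribosomal proteins are known in humans as a cause of cardiomyopathy.

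Library totals ranged from 27835235 to 34700996 counts, and the lowest count of any member in any library was 322. The 6 cardiomyocyte markers were detected in every library, with sums between 37900 and 54000 CPM (counts scaled to the library total). The floxed gene Sucnr1 had between 0 and 21 counts in every library, with 2 to 13 in Cre hearts given succinate, 2 to 21 in untreated Cre hearts, 0 to 7 in floxed hearts given succinate and 0 to 4 in untreated floxed hearts. Its counts were thus not lower in Cre hearts. They are too few to check the deletion, and each heart is assigned its genotype by label alone. The labels do not say that each library came from a separate mouse, and p-values measure the spread between these libraries. Values come from whole tissue, in which fewer cells of a type and less RNA per cell cannot be told apart.

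The Gene Ontology (GO) terms deposited with the counts placed 51 members in the large subunit and 28 in the small one. These terms tied 77 of the 78 to mitochondrial translation. The exception was Mrps36, which is known as a subunit of the oxoglutarate dehydrogenase complex. The Reactome terms of the same annotation tied 75 to mitochondrial translation, with Mrps36 among them but not Mrpl43, Mrps10 or Mrps11. By GO term, Mrps18a and Mrpl42 were annotated to both subunits, and Mrps30, despite its small-subunit name, to the large one.

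Levels per gene length, as the authors' FPKM (fragments scaled to gene length and library total), spanned from 3.53 to 278 between members, and their median was 22.9 FPKM, against 3.29 FPKM over all tested genes. The highest was Mrpl42, a large-subunit protein found in mitochondria but not bacteria, with 278 ± 41.2 FPKM (SD, n = 16 hearts) and a range of 217 to 373 FPKM. Mrpl12, the stalk protein that recruits translation factors, followed with 146 ± 15 FPKM. Mrps21 of the small subunit had 143 ± 26.0 FPKM, which overlapped with Mrpl12. At the low end, Mrps10 had 3.53 ± 0.33 FPKM, Mrpl19 had 4.25 ± 0.51 FPKM and Mrps25 had 4.31 ± 0.33 FPKM, and the ranges of these 3 overlapped. The median of the members thus lay above that of all tested genes, but below those of the families compared here. The 80 tested genes of cytosolic ribosomal proteins had a median of 305 FPKM, and 41 nuclear subunits of respiratory complex I had a median of 309 FPKM. FPKM divides by 1 length per gene, which ranged up to 8707 bases for Mrpl3, so the order of members depends on those lengths. Without strand information, reads of genes that overlap on opposite strands cannot be told apart, and in the GENCODE M21 annotation of GRCm38 22 of the 78 members share exon bases with a gene on the other strand, among them Mrpl19 with Gcfc2 and Mrps25 with Nr2c2.

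**Figure D1:**
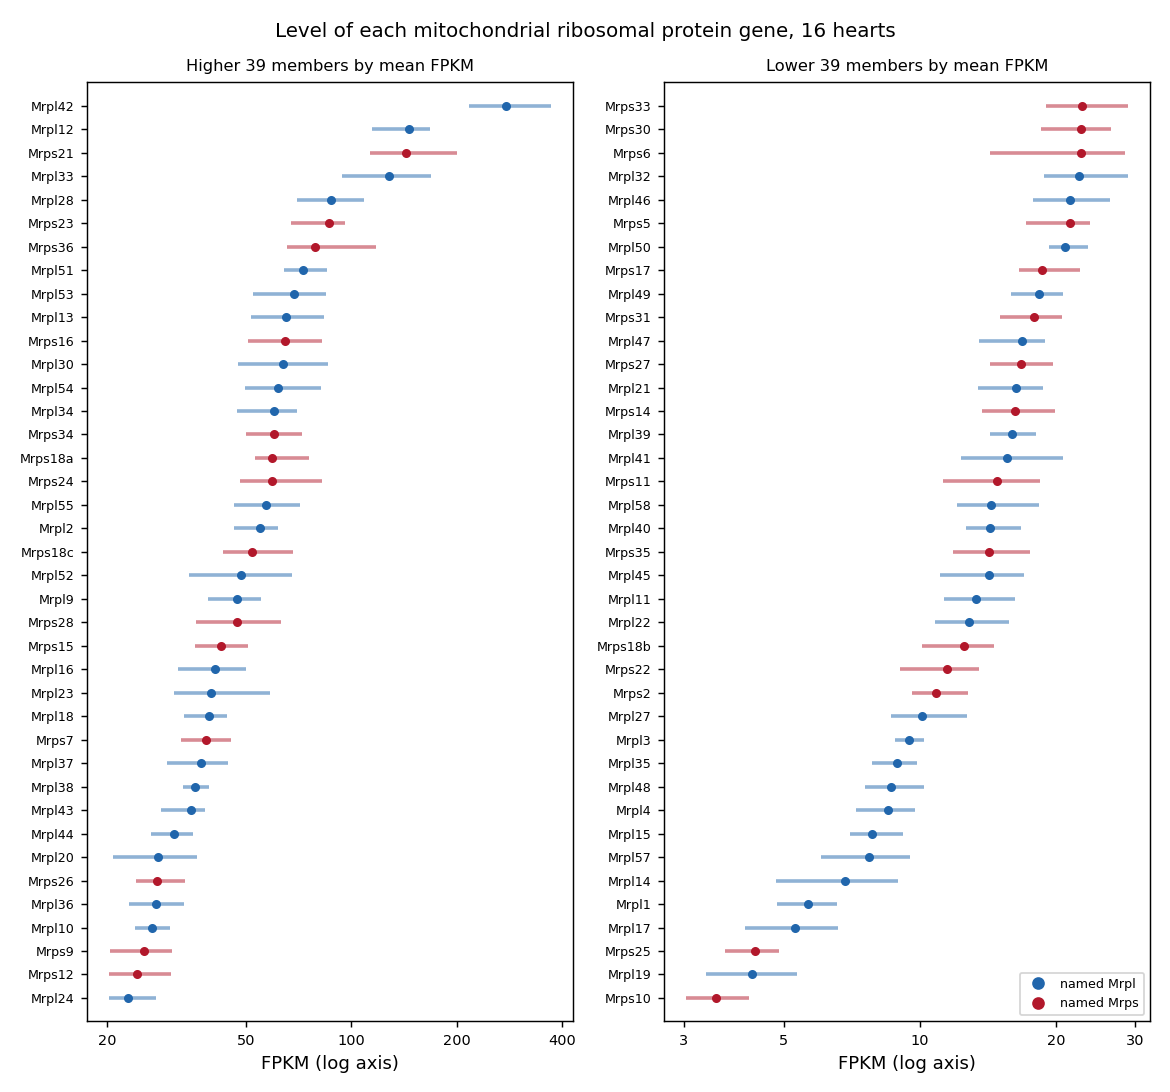
Mean FPKM (log axis, points) and the range over 16 hearts (bars) of the 78 members, ordered by mean, with blue for names in Mrpl and red for names in Mrps. Mrpl42 stands at the top with 278 FPKM and Mrps10 at the bottom with 3.53 FPKM, and most members lie between those ends with ranges that overlap their neighbours.

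Members varied little between replicate hearts. Their median biological coefficient of variation was 0.112, against 0.142 over all tested genes, 0.181 for cytosolic ribosomal proteins and 0.160 for complex I subunits. The steadiest member was Mrpl10, which anchors the stalk, with a mean coefficient of variation within groups of 4.22% on normalised CPM. Mrpl3, a large-subunit protein mutated in human cardiomyopathy, had 4.33%. The most variable was Mrps21, with 20.8%.

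The level also differed by library. Summed over the 78 members, the level was 4205 CPM in replicate 2 of the Cre hearts given succinate, 4226 CPM in replicate 4 of the floxed hearts given succinate and 4187 CPM in replicate 4 of the untreated floxed hearts. The other 13 libraries held 3285 to 3839 CPM. Within its group of 4, each of these 3 libraries was the highest for most members, for 66, 63 and 61 of 78 in the order just given. In untreated Cre hearts, replicate 2 was highest for 42 of 78. The same 3 libraries were the highest of their groups for the summed complex I subunits, and they had the largest share of counts from genes shorter than 1000 bases, 10.1%, 11% and 11.3% of nuclear-encoded counts, against 7.43% to 9.36% in the other libraries. In replicate 4 of the floxed hearts given succinate, the median log2 ratio to the other 3 replicates was 0.41 for the 22 members shorter than 1000 bases and 0.21 for the 56 longer ones. Over all tested genes the corresponding medians were 0.46 for 811 short genes and -0.014 for 13783 longer ones. The part of these libraries in the comparisons below was measured by leaving them out.

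**Figure D2:**
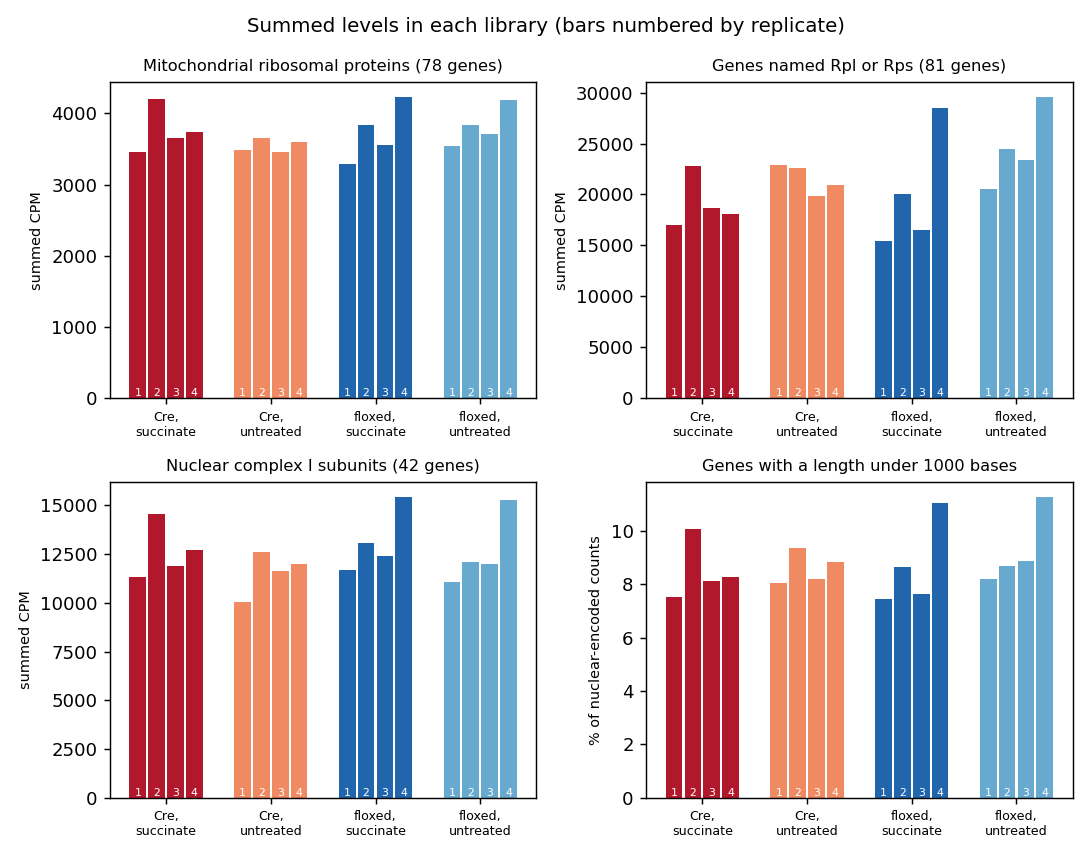
Summed CPM of the 78 mitochondrial ribosomal protein genes, of 81 cytosolic ribosomal protein genes and of 42 complex I genes, and the percent of nuclear-encoded counts from genes under 1000 bases, with 1 bar per library numbered by replicate. Replicate 2 of the Cre hearts given succinate and replicate 4 of both floxed groups stand highest for the members, between 4187 and 4226 CPM.

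The groups overlapped in the summed level. It was 3766 ± 317 CPM in Cre hearts given succinate, against 3548 ± 94.0 CPM in untreated Cre hearts (SD, n = 4 each). In floxed hearts it was 3726 ± 403 CPM with succinate, against 3817 ± 275 CPM without. As normalised CPM, the scale of the gene values below, the floxed sums were 3835 ± 458 with succinate and 3795 ± 315 without. The direction in floxed hearts thus depended on the scaling. In Cre hearts the normalised sums were 3786 ± 416 with succinate and 3470 ± 204 without. The differences lay within the spread of the 4 libraries of a group, and comparisons below are given gene by gene.

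Promoter sequences are shown for members on which the comparisons below turn, namely Mrps9 and Mrpl37, the members of smallest adjusted p for succinate over both genotypes, Mrpl17, the member that passed the threshold for genotype, and the neighbours Mrps11 and Mrpl46. They are RefSeq sequences of the GRCm38.p6 build, which is not the GRCm39 build of the counts, and each window runs from 250 bases before to 50 after the start site. RefSeq windows were found for 69 of the 78 members, which leaves out Mrpl4, Mrpl13, Mrpl15, Mrpl19, Mrpl38, Mrpl54, Mrps28, Mrps34 and Mrps35. Capitals mark matches, on either strand, to the motif of NRF-1 (the letters GCGCA, any base, then GCGC) or of YY1 (AANATGGCG), factors known for nuclear genes of mitochondrial proteins.
Mrps9 (chr1:42850983-42851282, plus strand, NRF-1 match): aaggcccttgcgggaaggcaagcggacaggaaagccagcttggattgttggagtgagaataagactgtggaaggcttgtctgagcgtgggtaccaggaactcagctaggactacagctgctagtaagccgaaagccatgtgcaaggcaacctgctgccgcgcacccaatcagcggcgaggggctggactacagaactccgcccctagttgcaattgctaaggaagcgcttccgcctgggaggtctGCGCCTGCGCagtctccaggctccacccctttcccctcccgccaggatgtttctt
Mrpl37 (chr4:107066817-107067116, minus strand, YY1 match): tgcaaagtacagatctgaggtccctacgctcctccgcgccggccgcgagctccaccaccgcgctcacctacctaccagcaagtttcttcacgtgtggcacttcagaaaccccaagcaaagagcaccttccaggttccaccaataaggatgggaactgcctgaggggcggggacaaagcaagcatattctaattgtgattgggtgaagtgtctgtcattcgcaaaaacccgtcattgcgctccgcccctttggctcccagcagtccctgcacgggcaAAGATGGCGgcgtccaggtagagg
Mrpl17 (chr7:105811038-105811337, minus strand, NRF-1 match): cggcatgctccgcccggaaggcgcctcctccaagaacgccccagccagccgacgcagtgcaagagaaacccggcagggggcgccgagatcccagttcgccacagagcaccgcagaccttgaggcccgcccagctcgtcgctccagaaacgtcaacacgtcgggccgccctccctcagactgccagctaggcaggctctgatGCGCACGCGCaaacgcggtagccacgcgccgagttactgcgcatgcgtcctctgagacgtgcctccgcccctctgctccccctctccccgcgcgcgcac
Mrps11 (chr7:78782881-78783180, plus strand, YY1 match): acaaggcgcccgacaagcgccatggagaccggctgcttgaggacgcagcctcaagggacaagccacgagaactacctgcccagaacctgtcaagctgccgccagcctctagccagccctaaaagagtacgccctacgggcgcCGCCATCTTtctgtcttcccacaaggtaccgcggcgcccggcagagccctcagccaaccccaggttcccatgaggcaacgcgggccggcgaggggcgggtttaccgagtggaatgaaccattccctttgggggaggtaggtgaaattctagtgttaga
Mrpl46 (chr7:78783040-78783339, minus strand, no match): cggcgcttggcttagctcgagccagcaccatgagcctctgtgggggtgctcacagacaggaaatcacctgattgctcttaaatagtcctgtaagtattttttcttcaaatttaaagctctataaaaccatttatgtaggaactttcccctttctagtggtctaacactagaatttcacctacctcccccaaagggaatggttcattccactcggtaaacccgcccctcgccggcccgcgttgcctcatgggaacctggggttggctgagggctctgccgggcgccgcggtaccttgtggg

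Mrps11 and Mrpl46 are transcribed away from each other from start sites 42 bases apart, and their windows share 141 bases, read on opposite strands. They were the only members to face another member in this way, but 24 of the 69 members (34.8%) had a divergent gene start within 1000 bases, against 1432 of 13795 protein-coding genes with a window (10.4%). Those protein-coding genes were not limited to ones that passed the low-count filter, whereas all members passed it. Motifs were counted by gene, in any of its windows. The NRF-1 letters were found for 13 of 69 members (18.8%), against 8.95% of those protein-coding genes. The letters CCGGAAGT, a motif of the ETS family to which GABPA belongs, were in 12 (17.4%), against 7.08%. The YY1 letters were in 11 (15.9%), against 4.52%. At least 1 of the 3 motifs was in 33 (47.8%), against 18.7%, and no 2 motifs overlapped in a member window. Of the 8 members higher with succinate over both genotypes, Mrps9 and Mrpl37 held a match, while Mrpl2, Mrpl16, Mrps5 and Mrps31 held none and Mrps35 and Mrpl4 had no window. A match is a description of the letters, and binding was not measured.

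Hearts with and without succinate were compared first in floxed mice, which carry no Cre by label. A few members were higher and most did not pass the test. With edgeR's quasi-likelihood test and Benjamini-Hochberg adjustment over all tested genes, 4 of 78 members were higher, where 7.48% of all tested genes were, and 0 were lower, where 5.64% were. The share of members called higher was thus no larger than that of genes at large. At an unadjusted p under 0.05, 7 were higher (15.3% of all tested genes) and 3 lower (13.1%). Over the 78 members the median log2 fold change was 0.021, against 0.0024 over all tested genes, with 41 members above 0 (50.3% of all tested genes) and a range of -0.36 to 0.33.

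Of the 4 called, 3 belong to the small subunit and Mrpl37 to the large one. Mrps31, a protein of the small subunit found in mitochondria but not bacteria, had 31.6, 31.8, 27.9 and 33.6 normalised CPM in the 4 floxed hearts given succinate, against 26.4, 24.6, 25.0 and 23.5 in the 4 untreated ones. Every heart given succinate was above every untreated heart. The log2 fold change was 0.33 ± 0.088 (SE; adjusted p = 0.0201).

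Mrps9, a conserved protein of the small subunit's head, had 67.1, 72.1, 70.1 and 77.3 normalised CPM with succinate, against 52.9, 58.3, 54.3 and 65.2 without. The groups did not overlap, although untreated replicate 4 came close to the lowest treated heart. The log2 fold change was 0.31 ± 0.093 (adjusted p = 0.0341).

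Mrps5, known to contribute to accurate decoding, had 31.4, 33.1, 33.8 and 33.8 normalised CPM with succinate, against 27.3, 29.4, 24.4 and 29.4 without, again with no overlap. It changed by 0.26 ± 0.075 (adjusted p = 0.0300). Mrpl37, a large-subunit protein that bacteria lack, had 61.0, 66.7, 64.8 and 66.9 normalised CPM with succinate, against 53.6, 54.3, 48.8 and 60.0 without. Its groups did not overlap, and it changed by 0.26 ± 0.083 (adjusted p = 0.0466). Mrps35, next in order of p, had the same size of difference, 0.28 ± 0.097, without passing (adjusted p = 0.0640).

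These calls sat close to the threshold. The count of 4 fell to 0 without replicate 2 of the floxed hearts given succinate or replicate 3 of the untreated floxed hearts. It was 1 when the omitted library was succinate-treated floxed heart 3 or 4, untreated floxed heart 1 or untreated Cre heart 4. It was 2 when it was succinate-treated floxed heart 1, untreated floxed heart 2 or succinate-treated Cre heart 3. Without all 3 libraries of highest summed member level, 6 members passed, namely Mrpl16, Mrpl37, Mrps5, Mrps9 and Mrps30 as higher and Mrpl52 as lower. The number of members above 0 was 24 in place of 41 without replicate 4 of the floxed hearts given succinate and 55 without replicate 4 of the untreated floxed hearts, with medians of -0.054 and 0.078.

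At the other end stood Mrpl52 and Mrps6, named after their values were seen because they lie apart from the other members. Mrpl52 had a log2 fold change of -0.36 ± 0.16 (adjusted p = 0.152) and Mrps6 of -0.35 ± 0.13 (adjusted p = 0.0801), and neither passed by edgeR. By limma on log2(FPKM + 1) or log2(FPKM + 0.1), Mrps6 passed as lower, and by limma voom with sample weights Mrpl52 did. Mrps6 had 11.6, 16.9, 16.1 and 15 normalised CPM with succinate, against 21.2, 18.4, 17.9 and 18.3 without, and its groups did not overlap. It shares exon bases on the same strand with Slc5a3, a transporter gene of osmolytes, so its reads are uncertain.

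Marker sums moved with succinate in floxed hearts. The 6 cardiomyocyte markers summed to 46500 to 54000 CPM with succinate, against 40100 to 46600 CPM without, ranges that overlapped slightly. The 5 macrophage markers summed to 98.1 to 154 CPM with succinate, against 175 to 254 CPM without, ranges that did not meet, and all 5 were detected in both groups. The 5 atrial markers, of which Sln had 0 counts in every floxed heart given succinate and Nppa carried nearly all counts, summed to 64.6 to 90.8 CPM, against 172 to 467 CPM. The part of these shifts in the members' values was not tested.

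The second comparison asked the same of Cre hearts. The members leaned upward as a list, but no single gene passed. By edgeR, 0 of 78 were higher, where 0.602% of all tested genes were, and 0 were lower, where 0.315% were (0.917% in either direction). At an unadjusted p under 0.05, 12 were higher (7.99% of all tested genes) and 0 lower (6.07%). DESeq2 called 2, Mrps9 and Mrpl37, and limma on log2 FPKM called 0. The median log2 fold change was 0.13, against 0.0068 over all tested genes, with 70 of 78 members above 0, against 51.3% of all tested genes.

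The members of smallest p were Mrps9, Mrpl37, Mrpl16, Mrpl4 and Mrps11. Mrps9 had 60.2, 74.0, 58.3 and 69.1 normalised CPM in Cre hearts given succinate, against 44.6, 53.2, 53.1 and 52.1 in untreated ones, with no overlap. The log2 fold change was 0.37 ± 0.093 (adjusted p = 0.0678). Mrpl16, which in bacteria lies near the peptidyl transferase centre, had 50.5, 58.5, 47.3 and 54.3 normalised CPM, against 33.1, 46.2, 44.6 and 41.4, again with no overlap, and a log2 fold change of 0.35 ± 0.10 (adjusted p = 0.117). Mrpl37 had 0.31 ± 0.083 (adjusted p = 0.0900), Mrpl4 had 0.30 ± 0.089 (adjusted p = 0.118) and Mrps11 had 0.28 ± 0.10 (adjusted p = 0.213).

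The count above 0 moved with single libraries. Without replicate 2 of the Cre hearts given succinate, 52 of 78 members were above 0 and the median was 0.038, and 74 were without replicate 1 of that group. Mrps9 passed without replicate 4 of the untreated floxed hearts (adjusted p = 0.0489) and Mrpl37 passed with untreated Cre heart 3 omitted (adjusted p = 0.0448). Leaving out any other single library gave 0 calls. Cardiomyocyte markers summed to 45800 to 52300 CPM in Cre hearts given succinate, against 37900 to 43000 CPM in untreated ones. Macrophage markers summed to 119 to 222 CPM in Cre hearts given succinate, against 189 to 274 CPM in untreated ones. The part of these markers was not tested.

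Averaged over both genotypes, 8 hearts against 8 each way, 8 of 78 members were higher with succinate and 0 lower, where 10.6% of all tested genes were higher and 8.45% lower. The share of members called higher was thus near that of genes at large. Of the 49 members named Mrpl, 4 were called, namely Mrpl2, Mrpl4, Mrpl16 and Mrpl37. Of the 29 named Mrps, 4 were called, namely Mrps5, Mrps9, Mrps31 and Mrps35. Fold changes were small, from 0.19 to 0.34 on the log2 scale. The median over all 78 was 0.058, against 0.0059 over all tested genes, and 59 were above 0, against 51.1% of all tested genes. The count of 0 lower members depended on the setting. Mrps6 also passed, as lower, with RLE size factors, without mitochondrially encoded genes, with a minimum count of 50 and with the replicate number as a block in the fit. It passed as lower too with DESeq2, limma on filtered FPKM, voom and without the 3 libraries of highest summed member level. Mrpl52 passed as lower with limma on filtered FPKM, with voom and without those 3 libraries, and Mrpl33 passed as lower without those 3 libraries. The median was 0.015 without replicate 4 of the floxed hearts given succinate, 0.028 without replicate 2 of the Cre hearts given succinate (45 above 0), 0.024 with untreated Cre heart 1 omitted, and 0.029 and 0.034 with untreated floxed heart 1 or 3 omitted. Without the 3 libraries it was 0.0033, with 40 above 0. This comparison uses the same hearts as the ones before it, and its calls are not separate evidence.

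Mrps9 led the list with a log2 fold change of 0.34 ± 0.066 (adjusted p = 0.00190). It averaged 65.4 ± 7.43 normalised CPM in Cre hearts given succinate and 50.7 ± 4.12 in untreated ones (SD, n = 4 each). In floxed hearts it averaged 71.7 ± 4.29 with succinate and 57.7 ± 5.54 without. Its log2 fold change was 0.37 in Cre hearts and 0.31 in floxed hearts.

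Mrpl37 changed by 0.28 ± 0.059 (adjusted p = 0.00305). It averaged 57.3 ± 3.61 normalised CPM in Cre hearts given succinate and 46.4 ± 4.52 in untreated ones, and 64.9 ± 2.77 in floxed hearts given succinate and 54.2 ± 4.58 in untreated ones. In Cre hearts the highest untreated value, 53.0, exceeded the lowest treated one, 52.1.

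Mrpl16 changed by 0.31 ± 0.074 (adjusted p = 0.00701). In floxed hearts it had 45.5, 53.0, 50.5 and 49.8 normalised CPM with succinate, against 37.0, 39.7, 39.8 and 47.6 without, and untreated replicate 4 overlapped the treated range.

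Mrps31 changed by 0.26 ± 0.062 (adjusted p = 0.00640). Mrps35, a small-subunit protein that bacteria lack, changed by 0.27 ± 0.069 (adjusted p = 0.0114), with 55, 70.7, 57.4 and 65.8 normalised CPM in Cre hearts given succinate, against 46.9, 53.5, 51.4 and 56.8 in untreated ones. The lowest treated heart lay inside the untreated range. In floxed hearts Mrps35 had 70.8, 68.6, 66.2 and 79.4 with succinate, against 50.7, 61.3, 58.4 and 64.2 without, and the groups did not overlap.

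The remaining calls were smaller. Mrpl4, whose bacterial relative lines the exit tunnel, changed by 0.22 ± 0.063 (adjusted p = 0.0207), Mrps5 by 0.20 ± 0.053 (adjusted p = 0.0127) and Mrpl2, whose bacterial relative is needed for peptidyl transfer, by 0.19 ± 0.063 (adjusted p = 0.0386). The 5 largest, Mrps9, Mrpl16, Mrpl37, Mrps35 and Mrps31, stayed past the threshold in all 27 alternatives run, and Mrps5 in all but limma on unfiltered FPKM (adjusted p = 0.0533). Mrpl4 was lost without any one of 5 libraries, namely untreated Cre hearts 1 and 4, succinate-treated floxed heart 3 and untreated floxed hearts 1 and 3, with adjusted p up to 0.0655. Mrpl2 was lost without any one of 11 of the 16 libraries, with adjusted p up to 0.116.

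**Figure D3:**
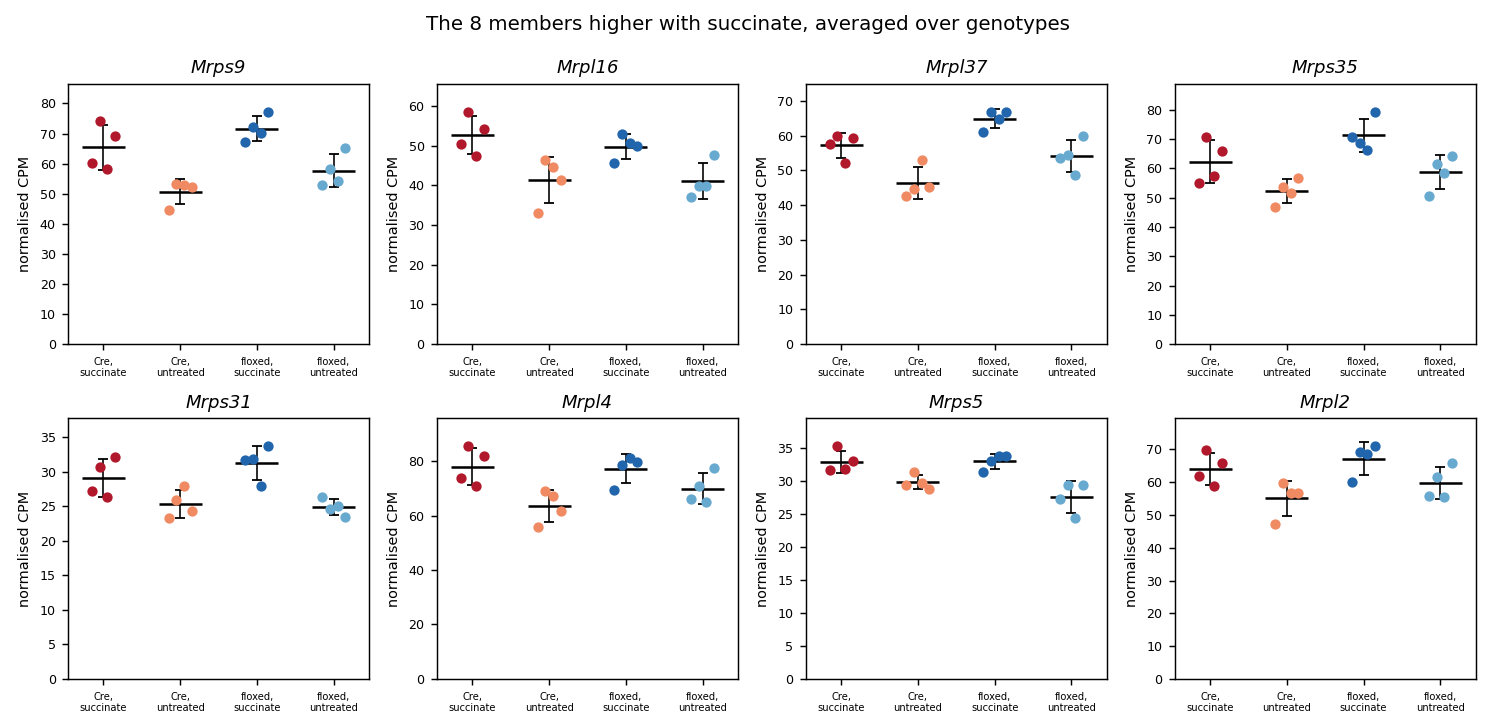
Normalised CPM of the 8 members that were higher with succinate over both genotypes, with 1 point per heart, the group mean as a line and the SD as an error bar (n = 4 per group). In each panel both groups given succinate average above the untreated group of the same genotype, as for Mrps9 with 65.4 against 50.7 in Cre hearts and 71.7 against 57.7 in floxed hearts.

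Over both genotypes 19 of the 78 members were below 0. In the same hearts, the cytosolic ribosomal proteins had a median of -0.17 with all 80 tested genes below 0 and 2 called lower, where 8.45% of all tested genes were. The complex I subunits had a median of 0.10 with 37 of 41 above 0 and 4 called higher, near the 10.6% of all tested genes. The difference between these families and the members was not tested.

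**Figure D4:**
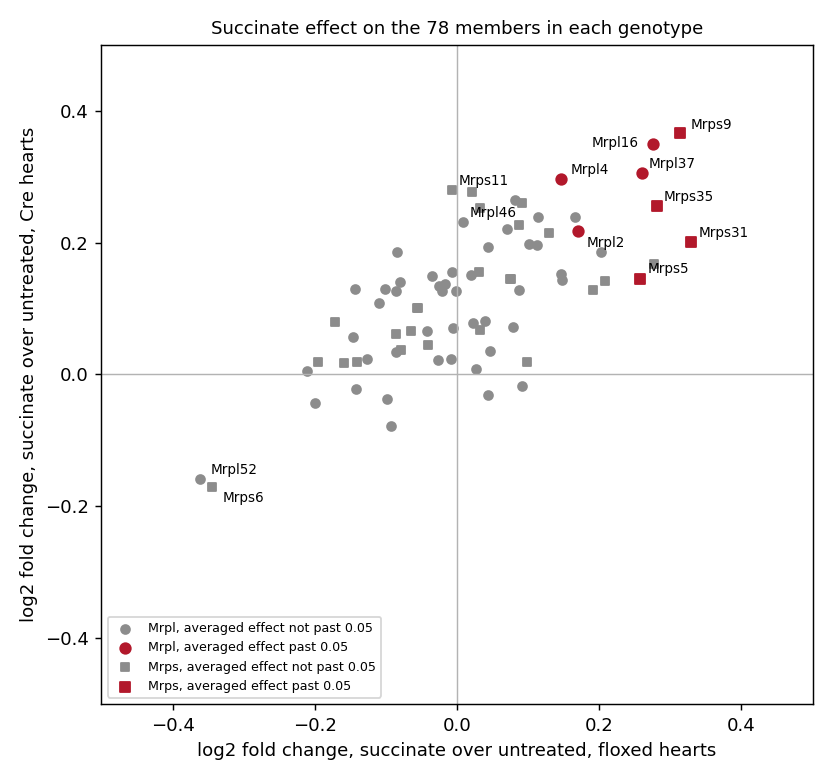
Log2 fold change of each of the 78 members with succinate in floxed hearts (horizontal axis) and in Cre hearts (vertical axis), as circles for Mrpl and squares for Mrps, with red for the 8 past an adjusted p of 0.05 over both genotypes. The red points lie at the upper right, and Mrpl52 and Mrps6 lie at the lower left with -0.36 and -0.35 in floxed hearts.

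Several genes that work with the mitochondrial ribosome were higher with succinate, from lists chosen with earlier results of these data known. Their counts stand against 7.48% of all tested genes higher in floxed hearts and 10.6% over both genotypes. Among 16 translation and recycling factors, 5 were higher and 0 lower with succinate in floxed hearts, and 6 were higher over both genotypes, with medians of 0.14 and 0.17. Gfm1, the elongation factor that moves the ribosome along the message, had 151 ± 15.1 normalised CPM in floxed hearts given succinate and 114 ± 10.8 in untreated ones (SD, n = 4 each), a change of 0.41 ± 0.10 (adjusted p = 0.0142). Tufm, which delivers charged tRNAs, changed by 0.31 ± 0.091 (adjusted p = 0.0314), and its exchange factor Tsfm by 0.26 ± 0.074 (adjusted p = 0.0269). Lrpprc, which stabilises mitochondrial messages, changed by 0.38 ± 0.12 (adjusted p = 0.0377).

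Among 25 assembly factors and rRNA-modifying enzymes, 3 were higher and 0 lower in floxed hearts, with a median of 0.051. Ddx28, a helicase of large-subunit assembly, had 15.2 ± 1.0 normalised CPM with succinate and 9.30 ± 1.88 without, a change of 0.71 ± 0.13 (adjusted p = 0.00278), above that of any member. Nsun4, an rRNA methyltransferase, changed by 0.37 ± 0.080 (adjusted p = 0.00653), and its partner Mterf4 by 0.42 ± 0.099 (adjusted p = 0.0104). Over both genotypes 4 were higher, and Ybey, an endoribonuclease, was lower with -0.36 ± 0.12 (adjusted p = 0.0480).

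Of 22 genes that charge mitochondrial tRNAs, 2 were higher in floxed hearts and 7 over both genotypes, with 0 lower in either and medians of 0.18 and 0.16. The count in floxed hearts was near the share of all tested genes, 7.48%. Iars2, the isoleucine enzyme, changed by 0.36 ± 0.085 in floxed hearts (adjusted p = 0.0110). Of 11 genes of mitochondrial transcription and DNA upkeep, 2 were higher in floxed hearts with a median of 0.16, and Polg2, the accessory subunit of the mitochondrial DNA polymerase, changed by 0.80 ± 0.22 (adjusted p = 0.0212) at a low level, with 3.89 ± 0.94 normalised CPM with succinate and 2.23 ± 0.75 without. Of 5 ribosome proteins whose names do not begin with Mrp, 0 passed in floxed hearts. Over both genotypes Ptcd3 of the small subunit was higher, by 0.25 ± 0.062 (adjusted p = 0.00959).

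Of the 13 mitochondrially encoded messages that this ribosome translates, ND6 was higher in floxed hearts, by 0.61 ± 0.15 (adjusted p = 0.0138), and the others did not pass, with a median of 0.016 over the 13. That count of 1 in 13 was near the share of all tested genes, 7.48%. ND6 lies on the strand opposite to most other mitochondrial genes, and whether counting used strand is not stated, so its reads are uncertain. Of 11 regulators of nuclear mitochondrial genes, 0 passed in floxed hearts, and over both genotypes Pprc1, a relative of the coactivator PGC-1alpha, was lower with -0.37 ± 0.12 (adjusted p = 0.0388). In Cre hearts alone, 0 genes of these 7 lists passed, where 0.917% of all tested genes did in either direction. With so small a share, 0 calls do not show that these genes were unchanged there. Whether the genotypes differed was tested by the interaction below.

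The third question was whether the genotypes differed. In untreated hearts most members were slightly lower in Cre hearts, and 0 passed in either direction, where 0.0890% of all tested genes were higher and 0.0205% lower by edgeR. At an unadjusted p under 0.05, 11 were lower (3.92% of all tested genes) and 0 higher (4.83%, or 8.75% in either direction). DESeq2 called 1, Mrps11, and limma on log2 FPKM called 0. The median was -0.12, against 0.0022 over all tested genes, with 12 of 78 above 0, against 50.5% of all tested genes. Here too single libraries weighed: 28 members were above 0 without replicate 4 of the untreated floxed hearts, 24 when untreated Cre heart 1 was omitted, and 5 when untreated Cre heart 2 was.

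The members of smallest p were the divergent neighbours whose promoters are printed above. Mrps11, a conserved protein of the small subunit's platform, had 10.9, 13.9, 14.8 and 11.6 normalised CPM in untreated Cre hearts, against 15.5, 18.8, 15.5 and 18.5 in untreated floxed hearts. All 4 Cre hearts were below all 4 floxed hearts, and the log2 fold change was -0.42 ± 0.10 (adjusted p = 0.181). Mrpl46, a large-subunit protein that bacteria lack, had 19.0, 18.4, 20.1 and 18.5 normalised CPM, against 22.2, 24, 23.1 and 25.3. Its groups did not overlap either, with a log2 fold change of -0.31 ± 0.093 (adjusted p = 0.293).

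In hearts given succinate, Mrps11 had 15.1, 15.8, 14.8 and 16.3 normalised CPM in Cre hearts given succinate, against 16.3, 17.6, 17.0 and 17.1 in floxed hearts given succinate. The groups met at 16.3, and the log2 fold change was -0.13 ± 0.10 (adjusted p = 0.713). Mrpl46 had -0.092 ± 0.092 (adjusted p = 0.796). Whether the effect of genotype on Mrps11 or Mrpl46 differed with succinate did not pass the interaction test (adjusted p = 0.970 for both).

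Next by p in untreated hearts came Mrpl45, which anchors the ribosome to the inner membrane, with -0.31 ± 0.099 (adjusted p = 0.364), and Mrpl23, whose bacterial relative sits at the exit of the tunnel, with -0.44 ± 0.15 (adjusted p = 0.407). Mrpl37 was also among them, with -0.22 ± 0.083 (adjusted p = 0.447). Skeletal muscle markers, of which 4 were in the table and detected, summed to 411 to 1410 CPM in untreated Cre hearts, against 303 to 599 CPM in untreated floxed hearts, and the part of this difference was not tested.

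In hearts given succinate, 0 members passed for genotype, where 0.548% of all tested genes were higher and 0.144% lower by edgeR (0.691% in either direction). At an unadjusted p under 0.05, 1 was higher (6.37%) and 4 lower (4.70%), and DESeq2 called 0. Marker sums differed between genotypes in these hearts: skeletal muscle markers summed to 870 to 1240 CPM in Cre hearts given succinate, against 201 to 395 CPM in floxed hearts given succinate, and atrial markers to 446 to 934 CPM, against 64.6 to 90.8 CPM. Neither pair of ranges overlapped, and their part in the genotype values, averaged ones included, was not tested. The median was -0.00096, against -0.0089 over all tested genes, with 38 members above 0 (47.7% of all tested genes). Without replicate 2 of the Cre hearts given succinate, 18 members were above 0 and 1 passed, Mrpl17. Without replicate 1 of the floxed hearts given succinate 22 were above 0, and without replicate 4 of that group 57 were, with a median of 0.063. The members of smallest p were Mrpl17 with -0.36 ± 0.11 (adjusted p = 0.185), Mrpl23 with -0.37 ± 0.15 (adjusted p = 0.379), Mrps23 with 0.18 ± 0.080, Mrpl48 with -0.22 ± 0.096 (adjusted p = 0.409 for both) and Mrpl37 with -0.18 ± 0.083 (adjusted p = 0.440).

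Averaged over treatment, 1 member was lower in Cre hearts and 0 were higher, where 0.575% of all tested genes were lower and 1.30% higher. At an unadjusted p under 0.05, 11 were lower (6.23% of all tested genes) and 0 higher (7.87%). The member called was Mrpl17, a conserved large-subunit protein. It had 27.5, 39, 26.2 and 32.1 normalised CPM in Cre hearts given succinate, against 36.0, 39.3, 38.7 and 46.7 in floxed hearts given succinate. In untreated hearts it had 30.4, 33.3, 32.4 and 31.4 in Cre hearts, against 35.9, 39, 36.2 and 44.7 in floxed hearts.

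Untreated hearts did not overlap between genotypes, whereas replicate 2 of the Cre hearts given succinate lay within the floxed range. Mrpl17 had a log2 fold change of -0.33 ± 0.081 for genotype (adjusted p = 0.0443). For succinate over both genotypes it had 0.0065 ± 0.081 (adjusted p = 0.966). The call was lost without any one of 14 of the 16 libraries, with adjusted p between 0.0528 and 0.113. It held without replicate 1 of the floxed hearts given succinate, and without replicate 2 of the Cre hearts given succinate 3 members passed, Mrpl17, Mrpl23 and Mrpl48. With untreated Cre heart 3 omitted, 2 members passed, Mrps11 and Mrpl37, and Mrpl17 did not.

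Next in order were Mrps11 with -0.27 ± 0.072 (adjusted p = 0.0607), Mrpl23 with -0.40 ± 0.11 (adjusted p = 0.0685), Mrpl37 with -0.20 ± 0.059 (adjusted p = 0.0932) and Mrpl48 with -0.21 ± 0.068 (adjusted p = 0.131). The median over the members was -0.052, against -0.0044 over all tested genes, with 20 of 78 above 0 (48.4% of all tested genes). Without replicate 4 of the floxed hearts given succinate the median was -0.023 with 28 above 0, and with untreated floxed heart 4 omitted it was -0.031 with 27 above 0. With succinate-treated Cre heart 1 omitted it was -0.033 with 24 above 0. With succinate-treated Cre heart 2 omitted it was -0.087 with 14 above 0. The median was -0.16 for the cytosolic ribosomal proteins and -0.12 for complex I. Among the tRNA synthetases, Wars2, the tryptophan enzyme, was lower in Cre hearts by the same comparison, with -0.33 ± 0.083 (adjusted p = 0.0495).

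**Figure D5:**
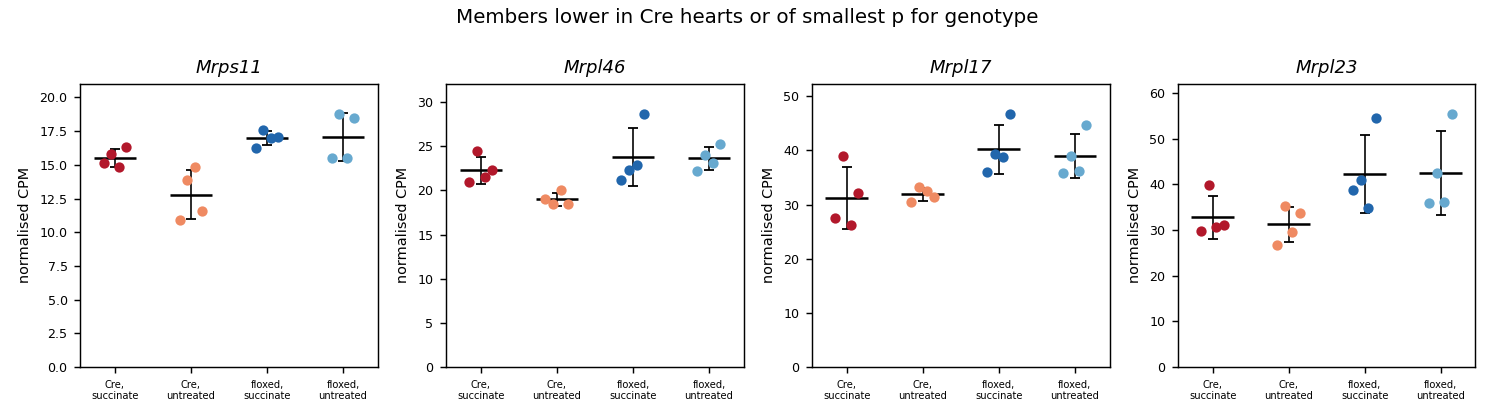
Normalised CPM of Mrps11, Mrpl46, Mrpl17 and Mrpl23 in each heart, with the group mean as a line and the SD as an error bar (n = 4 per group). The 4 genes were picked from the members of smallest p for genotype. Untreated Cre hearts lie below untreated floxed hearts in all 4 panels. The same groups overlapped for Mrpl45 and Mrpl37, also among the members of smallest p in untreated hearts, and for most members. The share of all tested genes without overlap was not counted. Of the genes shown, Mrpl17 alone passed the threshold for genotype over both treatments.

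The last comparison asked whether the effect of succinate depended on genotype. For the members, 0 passed, as for all tested genes (0.00%) by edgeR, and 0 passed even at an unadjusted p under 0.05 (4.85% of all tested genes, 2.13% above 0 and 2.72% below). DESeq2 and limma on log2 FPKM also called 0 members. The median of the interaction was 0.12, against 0.0038 over all tested genes, with 64 of 78 above 0, against 50.5% of all tested genes, a count that was 48 without replicate 4 of the untreated floxed hearts and 51 without replicate 2 of the Cre hearts given succinate or with untreated Cre heart 1 omitted. The smallest p belonged to Mrpl49 with 0.23 ± 0.12, Mrps11 with 0.29 ± 0.14, Mrps12 with 0.25 ± 0.14, Mrpl18 with 0.22 ± 0.13 and Mrpl46 with 0.22 ± 0.13 (adjusted p = 0.970 for each).

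A set of 14 members of known role covers working parts of the ribosome, and also Mrps36 of the oxoglutarate dehydrogenase complex. By edgeR, none of the 14 passed in any of the 7 comparisons. Of all tested genes, 13.1% passed in either direction with succinate in floxed hearts and 19.0% over both genotypes. In the other comparisons at most 1.88% did. With so few genes, 0 calls do not show that they were unchanged. At the decoding site, Mrps12, the protein of the small subunit that monitors base pairing, had 24.2 ± 2.51 normalised CPM in floxed hearts given succinate and 27.2 ± 3.35 in untreated ones. Its divergent neighbour Sars2, the mitochondrial serine tRNA synthetase, was higher with succinate over both genotypes, by 0.29 ± 0.084 (adjusted p = 0.0228), while Mrps12 had -0.046 ± 0.072 (adjusted p = 0.700). Their start sites are 147 bases apart. Among the other divergent partners of members, Pnpla7 beside Mrpl41 (0.75 ± 0.081, adjusted p = 1.68e-05) and Tmem63b beside Mrpl14 (0.34 ± 0.079, adjusted p = 0.00593) also passed as higher. The remaining tested partners did not pass, where 19.0% of all tested genes did in either direction.

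In the stalk, Mrpl12 had 145 ± 24.1 normalised CPM in floxed hearts given succinate and 154 ± 8.69 in untreated ones, and Mrpl10 had 46.3 ± 2.07 with succinate and 43.6 ± 2.44 without. Mrpl3 and Mrpl44, both mutated in human cardiomyopathy, had log2 fold changes with succinate over both genotypes of -0.0020 ± 0.048 and 0.15 ± 0.059, and Mrpl44 had the smallest adjusted p of the 14 (0.0867). Mrps22, also a human disease gene, had 0.18 ± 0.092 (adjusted p = 0.195).

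The homologues Mrps18a, Mrps18b and Mrps18c descend from a single bacterial protein, and structures place the first in the large subunit and the others in the small one. Per gene length they differed, with 59.3 ± 5.91 FPKM for Mrps18a, 12.5 ± 1.22 FPKM for Mrps18b and 51.9 ± 8.27 FPKM for Mrps18c over the 16 hearts. With succinate over both genotypes Mrps18a had a log2 fold change of 0.16 ± 0.075, Mrps18b of 0.11 ± 0.077 and Mrps18c of 0.15 ± 0.11, none of which passed.

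Mrpl58, a peptidyl-tRNA hydrolase that became part of the large subunit, had 38.9 ± 6.36 normalised CPM in floxed hearts given succinate and 41.1 ± 6.96 in untreated ones. Mrps36 of the oxoglutarate dehydrogenase complex had 64.6 ± 16.4 with succinate and 55.9 ± 7.78 without. The differences of both lay within the spread of their replicates. Of the other members in the set, Mrps15, Mrpl41 and Mrpl57 had log2 fold changes with succinate of 0.023, 0.15 and -0.085 over both genotypes and did not pass.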

How the data were processed

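Whole-heart RNA was extracted with TRIzol and made into libraries with the VAHTS Universal V6 kit, per the labels' protocols. The submitters' processing notes name fastp, HISAT2, HTSeq, R 3.2.0, DESeq2 and the GRCm39 build, with no roles, and whether counting used strand is not stated there. The authors deposited raw counts per gene and FPKM values, made with 1 length per gene. Counts were tested with edgeR 4.0.16 (quasi-likelihood test, TMM scaling, Benjamini-Hochberg adjustment, threshold 0.05) in R 4.3.3, in a fit of all 4 groups with 12 residual degrees of freedom, after a filter at a minimum count of 10 that kept 14607 genes. The fit was also run on simulated counts, drawn gene by gene from the spread fitted to these data. That simulation held no shift shared by many genes of a library, so it does not speak to the library differences described above. Normalised CPM are counts scaled to the TMM-adjusted library total, and standard errors were taken from the fold change and its F statistic. Alternatives used DESeq2 1.42.0 and limma 3.58.1. Fold changes of FPKM in limma are on the log2(FPKM + 1) or log2(FPKM + 0.1) scale. The genes named in each comparison were the 5 members of smallest p, those past the threshold and the 14 of known role. The members and lists were chosen with earlier results of these data known.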

Additional observations from a re-analysis of the deposited data

Results flagged for a closer look

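For 36 named members and the summed member level, 148 groups of 4 hearts were examined for 1 heart far from the other 3, and 10 had one, where chance gives about 1 group in 20. In replicate 2 of the Cre hearts given succinate, Mrpl23 had 39.87 normalised CPM, against 29.73 to 31.12 in the other 3 hearts of its group. Mrpl48 had 43.88 in that heart, against 34.24 to 35.55, and Mrps21 had 88.33, against 64.06 to 67.61. In replicate 4 of the untreated floxed hearts, Mrpl44 had 47.71, against 41.0 to 41.74. Mrps18a had 56.54 there, against 46.5 to 47.84, and Mrps36 had 67.42, against 50.4 to 53.3. In replicate 4 of the floxed hearts given succinate, Mrps10 had 22.25, against 18.29 to 18.46. These 3 libraries are those of highest summed member level, and 7 of the 10 values lie in them. The other 3 values lie in replicate 1 of the untreated Cre hearts, where Mrps22 had 15.06, against 11.36 to 11.71, Mrps25 had 21.49, against 26.89 to 27.3, and Mrps9 had 44.59, against 52.08 to 53.18.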

How the results depend on the processing

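No member called by edgeR changed sign under the alternatives run. Medians did: leaving out single libraries gave -0.054 to 0.078 for succinate in floxed hearts and -0.078 to 0.063 for genotype with succinate. Of the members called with succinate in floxed hearts (4), 1 remained without a filter on low counts, 2 with only the groups compared in the fit, 1 with limma on unfiltered log2(FPKM + 1), and voom with sample weights called 8. In Cre hearts (0), DESeq2 called 2, and for genotype without succinate (0) DESeq2 called 1. Over both genotypes (8), limma on unfiltered FPKM called 5. For genotype over both treatments (1), DESeq2 called 4, voom 3, the fit without the 3 libraries of highest summed member level 2, and limma on FPKM 0 with either pseudocount or no filter. The cause of these differences was not tested. Leaving out each library in turn gave 0 to 5 calls for succinate in floxed hearts, 0 to 1 in Cre hearts and 6 to 11 over both genotypes. It gave 0 to 0 for genotype without succinate, 0 to 1 with it, 0 to 3 over both treatments and 0 to 0 for the interaction. The ratio of the highest to the lowest summed member level was 1.29, and 1.4 with TMM scaling. Voom, the omission of 3 libraries and the TMM-scaled sums were chosen after seeing the data. With the replicate number as a block, 1 member was called in Cre hearts, 5 in floxed hearts, 11 over both genotypes and 2 for genotype over both treatments. Same-numbered hearts did not deviate together throughout, with correlations from -0.159 to 0.475. The highest were those of replicate 1 between genotypes, 0.475 with succinate and 0.379 without. Whether equal numbers stand for a pairing of samples was not tested.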
